A study of Mus musculus with 21 samples.

Results

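The genes described here are 9 regulators of mitochondrial apoptosis, Bcl2, Bcl2l1, Mcl1, Bax, Bak1, Bcl2l11, Bbc3, Casp9 and Aifm1, which were taken by gene symbol from the 33622 genes found in both count tables of the study. RNA-seq was performed on midbrain of male C57BL/6 mice aged 6 weeks, with 3 mice in each of 7 groups, and all injections were intraperitoneal. MPTP (1-methyl-4-phenyl-tetrahydropyridine) is a neurotoxin whose product inhibits complex I of the mitochondrial respiratory chain and kills dopaminergic neurons, and irisin is a hormone of muscle cut from the membrane protein FNDC5. In the pre-treatment experiment (9 mice), control mice were given ddH2O for 10 days, MPTP mice were given ddH2O for 5 days and then MPTP at 30 mg/kg a day for 5 days, and irisin pre-treated mice were given irisin at 200 μg/kg a day for 5 days and then the same MPTP. In the delayed treatment experiment (12 mice), control mice were given ddH2O for 10 days, irisin mice were given ddH2O for 5 days and then irisin for 5 days, MPTP mice were given MPTP for 5 days and then ddH2O for 5 days, and delayed irisin mice were given MPTP for 5 days and then irisin for 5 days, at the same doses. The last injections of MPTP were therefore recent in the first experiment and older in the second. The study's methods describe nigral tissue dissected by hand, and the labels give no pooling of animals.

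Apoptosis through mitochondria is set by proteins of the Bcl2 family, which share BH (Bcl2 homology) domains. Bcl2, Bcl-xL (the product of Bcl2l1) and Mcl1 bind and restrain the pore-forming effectors Bax and Bak (the product of Bak1). BH3-only proteins such as Bim (Bcl2l11) and Puma (Bbc3) occupy the restraining proteins or act on the effectors. Pores in the outer mitochondrial membrane release cytochrome c, which starts caspase 9, and apoptosis inducing factor (Aifm1), a flavoprotein of the intermembrane space that also helps the assembly of complex I. Loss of dopaminergic neurons after MPTP is known to depend on Bax, and many of these proteins are also controlled after transcription, so mRNA levels give only one side of their activity. In the tables (GRCm38) the restraining genes lie apart from each other, Bcl2 at chr1:106538178-106714274 (minus strand), Bcl2l1 at chr2:152780668-152831728 (minus strand) and Mcl1 at chr3:95658788-95663176 (plus strand). The effector genes are Bax at chr7:45461697-45466898 (minus strand) and Bak1 at chr17:27019810-27029009 (minus strand), and the BH3-only genes Bcl2l11 at chr2:128126038-128162547 (plus strand) and Bbc3 at chr7:16308393-16318205 (plus strand). The downstream genes are Casp9 at chr4:141793612-141815976 (plus strand) and Aifm1 at chrX:48474944-48513559 (minus strand).

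The promoters of Bcl2 and Mcl1 are shown because these were the members that stood lower together after irisin pre-treatment, and that of Bax because it is the partner of Bcl2 in the ratio described below. Each sequence is the 250 bases before the RefSeq start of transcription (GRCm38.p6, strand of the gene), and capitals mark TGACG, the core of the cyclic AMP response element, and GGGCGG, the GC box, on either strand. No marked motif overlapped another.
Bcl2 (chr1:106714291-106714540, minus strand): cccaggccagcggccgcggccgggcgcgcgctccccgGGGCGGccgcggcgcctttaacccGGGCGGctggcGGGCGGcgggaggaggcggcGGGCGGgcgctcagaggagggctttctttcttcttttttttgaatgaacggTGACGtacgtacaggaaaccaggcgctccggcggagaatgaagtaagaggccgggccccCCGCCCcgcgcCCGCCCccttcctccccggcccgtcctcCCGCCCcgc
Mcl1 (chr3:95658471-95658720, plus strand): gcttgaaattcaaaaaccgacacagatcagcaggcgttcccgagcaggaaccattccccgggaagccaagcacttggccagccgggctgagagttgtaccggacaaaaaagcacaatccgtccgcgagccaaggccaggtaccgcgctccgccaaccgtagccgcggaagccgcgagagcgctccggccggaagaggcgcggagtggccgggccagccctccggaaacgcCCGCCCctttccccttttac
Bax (chr7:45466899-45467148, minus strand): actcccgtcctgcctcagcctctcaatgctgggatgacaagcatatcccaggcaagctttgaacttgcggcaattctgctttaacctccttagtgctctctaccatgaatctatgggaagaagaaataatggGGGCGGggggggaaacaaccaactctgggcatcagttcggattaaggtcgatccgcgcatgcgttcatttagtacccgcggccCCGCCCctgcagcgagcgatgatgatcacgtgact
TGACG occurred 1 time before Bcl2, 107 bases before the start, and was not found in the windows of Mcl1 and Bax. GGGCGG occurred 7 times before Bcl2, 1 time before Mcl1 and 2 times before Bax. RefSeq gave 14 promoters for the 9 genes. Of these, 2 held TGACG, against 17.8% of all 32851 promoters of the same length, and 9 held GGGCGG, against 32.7%. Counted by gene, 2 of 9 held TGACG and 6 of 9 held GGGCGG in any promoter. Promoters of the same gene are not separate cases, and windows of Bbc3 shared bases. These letters describe the windows and were not tested as binding sites.

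The total count was 66.7 to 75.6 M (mega) a mouse in the pre-treatment experiment and 48.8 to 77.2 M for delayed treatment. All 9 genes passed the filter on low counts among 22641 and 21922 tested genes, and counts of a member ranged from 25 (Bcl2l11 in 1 mouse) to 7762 (Mcl1). Markers of dopaminergic neurons (7 of 7 with counts) had a summed level of 454 to 846 CPM (counts per M of the TMM scaled library) over the 21 mice. They were thus detected in every group. Th made up 21.3 to 63.3 CPM of this sum and Slc6a3 15.3 to 106 CPM. In the pre-treatment experiment the summed level was 529 to 846 CPM in MPTP mice and 513 to 815 CPM in control mice, with overlapping ranges. With delayed treatment it was 454 to 578 CPM in MPTP mice and 667 to 701 CPM in control mice, without overlap. Irisin mice of that experiment had 623 to 631 CPM and delayed irisin mice 466 to 536 CPM. Choroid plexus markers had a summed level of 6.67 to 1621 CPM and differed widely between mice of one group. The part of these lists in the values of the 9 genes was not tested. In whole tissue, fewer cells of a type and less RNA per cell cannot be told apart.

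Mcl1 had the highest level of the 9 genes when compared per length in FPKM, a unit that corrects for gene length and depth, at a median of 25.6 FPKM in the first (pre-treatment) and 24.4 FPKM in the second (delayed treatment) experiment, and its range overlapped that of no other member in the first experiment. In the second it overlapped only that of Bcl2l1, through 2 delayed irisin mice with 21.7 and 24.0 FPKM of Bcl2l1. Bcl2l1, Bax, Aifm1 and Bak1 formed a middle tier, with medians of 13.5, 9.28, 7.87 and 5.37 FPKM in the first and 9.65, 10.52, 7.20 and 6.697 FPKM in the second. The ranges of Bcl2l1 and Bax overlapped in both experiments, and those of Aifm1 and Bak1 only in the second. In the first, the wide range of Bcl2l1 (6.46 to 16.3 FPKM) also held that of Aifm1 (6.55 to 8.12 FPKM). Bcl2 (3.54 and 2.74 FPKM) and Casp9 (2.23 and 3.48 FPKM) followed with overlapping ranges. The BH3-only genes were lowest, Bcl2l11 at medians of 0.576 and 0.557 FPKM and Bbc3 at 0.426 and 0.723 FPKM, also with overlapping ranges. The experiments were deposited as separate tables, so levels were not tested between them.

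None of the 9 genes had an adjusted p under 0.05 (edgeR quasi-likelihood test, Benjamini-Hochberg over all tested genes) in any of the 5 comparisons or in the interaction of irisin and MPTP. DESeq2 and limma on log2 FPKM also gave 0 of 9. Few genes did so at all. The share of all tested genes was 0.0221% for MPTP against control and 0.0707% for irisin pre-treatment against MPTP in the first experiment. In the second it was 0.132% for MPTP against control, 0.109% for irisin alone against control, 0.00456% for delayed irisin against MPTP and 0.0411% for the interaction. At an unadjusted p under 0.05 there were 0 of 9 members for MPTP against control in the pre-treatment experiment (6.03% of all tested genes), 2 for irisin pre-treatment (6.22%), 1 for MPTP in the delayed treatment experiment (8.33%), 3 for irisin alone (8.97%), 2 for delayed irisin (3.9%) and 0 for the interaction (5.57%). The groups of mice did not overlap for 1 of 9 members (11.6% of all tested genes), 2 (14.2%), 1 (16.2%), 3 (15.1%) and 2 (10.7%) in the 5 comparisons in the same order. The median log2 fold change of the 9 genes was -0.05, -0.02, -0.02, -0.06 and -0.08 in that order, beside medians over all tested genes between -0.00227 and 0.00309. Neighbouring comparisons share mice, since MPTP mice enter 2 comparisons in each experiment and the control mice of the second experiment enter 2.

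**Figure D1:**
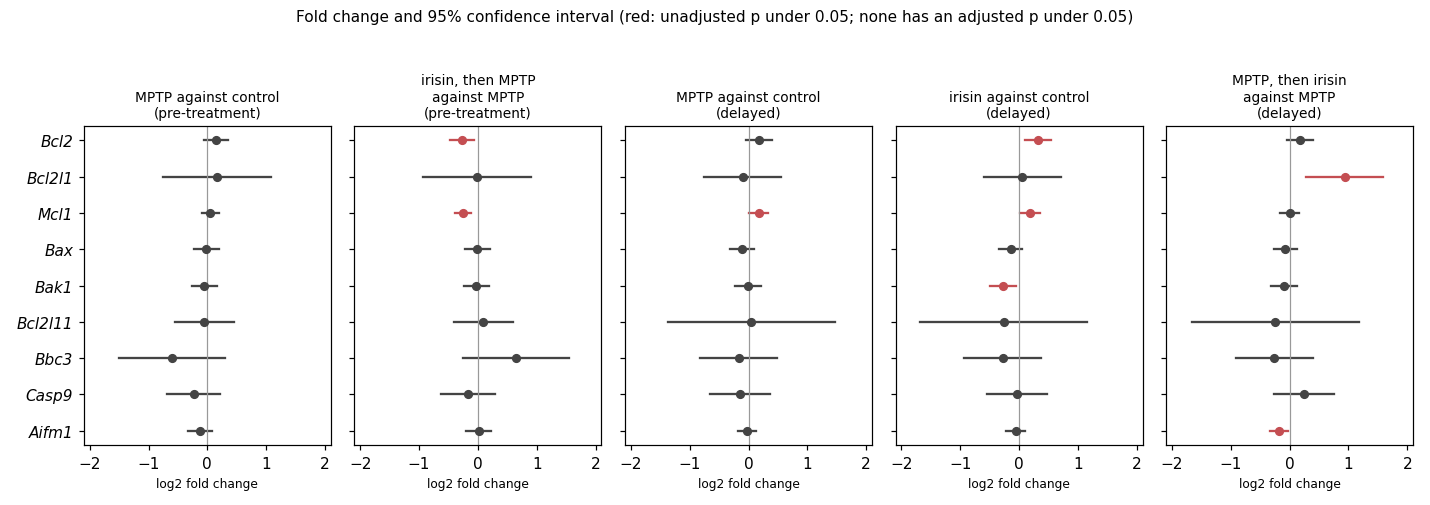
Log2 fold change (x axis) of each of the 9 genes (rows) in the 5 comparisons (panels), with its 95% confidence interval from edgeR. Intervals of Mcl1, Bax, Bak1, Bcl2 and Aifm1 are narrow and those of Bcl2l1, Bcl2l11 and Bbc3 wide, and the 8 red points have an unadjusted p under 0.05.

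Among the restraining proteins, Bcl2 itself was measured at 39.3, 37.5 and 34.6 CPM in control mice of the pre-treatment experiment, at 42.3, 37.0 and 44.1 CPM in MPTP mice and at 32.4, 34.9 and 35.3 CPM in irisin pre-treated mice. Every irisin pre-treated mouse thus lay below every MPTP mouse and within or just below the range of the control mice. The log2 fold change of irisin pre-treatment against MPTP was -0.27 (SE 0.09, adjusted p = 0.648 by edgeR), and that of MPTP against control was 0.15 (SE 0.09, adjusted p = 0.865). With delayed treatment Bcl2 was measured at 21.04, 27.6 and 23.3 CPM in control mice, 32.2, 28.3 and 29.3 CPM in irisin mice, 26.4, 27.8 and 27.6 CPM in MPTP mice and 32.8, 29.9 and 29.4 CPM in delayed irisin mice. Both groups given irisin in this experiment lay above their comparison group without overlap. The log2 fold change was 0.32 for irisin alone (SE 0.10, adjusted p = 0.452) and 0.17 for delayed irisin after MPTP (SE 0.10, adjusted p = 0.9995). Immediate early and heat shock genes, a list chosen as known to move in these data, had a summed level of 191 to 219 CPM in delayed irisin mice and 130 to 178 CPM in MPTP mice. The groups did not overlap for 5 of these 8 genes (10.7% of all tested genes), which is no independent test. Choroid plexus markers had a summed level of 54.2 to 286 CPM in irisin mice and 227 to 1476 CPM in control mice. These ranges overlapped, with a median log2 fold change of -2.34. Other lists were lower in irisin than in control mice without overlap. They were astrocyte (1029 to 1074 against 1125 to 1344 CPM), neuron (3976 to 4078 against 4150 to 4283 CPM) and dopaminergic markers (623 to 631 against 667 to 701 CPM). The part of these markers in the values of Bcl2 was not tested.

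Mcl1, a short-lived restraining protein, was measured at 92.2, 103 and 97.2 CPM in control mice of the pre-treatment experiment, 103, 97.3 and 103 CPM in MPTP mice and 85.2, 83.8 and 85.4 CPM in irisin pre-treated mice. The irisin pre-treated mice lay close together and below all 6 other mice of that experiment. Their log2 fold change against MPTP was -0.25 (SE 0.06, adjusted p = 0.413 by edgeR), and its unadjusted p was the smallest of any member in any comparison. Mcl1 with delayed treatment was measured at 82.9, 90.0 and 82.4 CPM in control mice, 94.2, 99.9 and 96.4 CPM in irisin mice, 96.95, 97.4 and 93.1 CPM in MPTP mice and 91.9, 88.1 and 107 CPM in delayed irisin mice. Control mice were the lowest of these groups, with a log2 fold change of 0.19 for irisin alone (SE 0.07, adjusted p = 0.529) and 0.17 for MPTP (SE 0.07, adjusted p = 0.568). Delayed irisin mice overlapped MPTP mice on both sides.

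Several marker lists had other summed levels in irisin pre-treated than in MPTP mice. The immediate early and heat shock genes, which respond within minutes to activity and stress, had a summed level of 51.0 to 62.4 CPM in irisin pre-treated mice, 171 to 209 CPM in MPTP mice and 106 to 186 CPM in control mice. Of these 8 genes, 5 fell at an adjusted p under 0.05 against MPTP by edgeR (0.0707% of all tested genes were called) and none of the 8 overlapped between the groups (14.2% of all tested genes did not). The list was chosen as known to move in these data, so these counts are no independent test and only describe the mice. Markers of red blood cells had a summed level of 229 to 453 CPM in irisin pre-treated mice and 546 to 806 CPM in MPTP mice. Astrocyte markers had a summed level of 725 to 824 CPM in irisin pre-treated mice and 837 to 922 CPM in MPTP mice. Neuron markers went the other way, at 4122 to 4233 CPM in irisin pre-treated mice and 3993 to 4101 CPM in MPTP mice. The ranges of oligodendrocyte and microglia markers overlapped between these groups. Choroid plexus markers had a summed level of 7.01 to 21.8 CPM and 7.14 to 1610 CPM in the same groups (median log2 fold change -3.19). Their highest level was in MPTP replicate 2, with Ttr at 1539 CPM. Endothelial markers had a summed level of 115 to 124 CPM in irisin pre-treated mice and 130 to 139 CPM in MPTP mice, with no overlap for 4 of 4 genes and log2 fold changes from -0.28 to 0.53 (median -0.25). Dopaminergic markers had a summed level of 529 to 619 CPM in irisin pre-treated mice and 529 to 846 CPM in MPTP mice, with all 7 log2 fold changes below 0 (median -0.55) and no overlap for 2 of 7. Apart from the immediate early and heat shock genes, no gene of these lists had an adjusted p under 0.05 (edgeR). The part of these lists in the values of Bcl2 and Mcl1 was not tested.

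Bcl2l1, which encodes Bcl-xL, stood on separate levels in mice of one group. It was measured at 69.4, 71.5 and 33.0 CPM in control mice of the pre-treatment experiment, 74.2, 83.1 and 36.9 CPM in MPTP mice and 37.5, 73.6 and 80.5 CPM in irisin pre-treated mice. Each group held 1 mouse at 33.0 to 37.5 CPM and 2 mice at 69.4 to 83.1 CPM. The second experiment gave 67.4, 47.8 and 44.8 CPM in control mice, 48.3, 45.9 and 72.2 CPM in irisin mice, 46.6, 49.0 and 53.7 CPM in MPTP mice and 111, 125 and 50.5 CPM in delayed irisin mice. The delayed irisin mice at 111 and 125 CPM had the highest levels of the 12 mice of that experiment, and the third lay inside the range of the MPTP mice. The log2 fold change of delayed irisin against MPTP was 0.94 (SE 0.30, adjusted p = 0.9995 by edgeR). It was the largest fold change of any member, and it rests on 2 of 3 mice. The spread of Bcl2l1 within groups was an SD of 0.62 and 0.43 on the log2 scale in the 2 experiments, at the 95.5th and 93.7th percentiles of genes within 2-fold of its level.

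**Figure D2:**
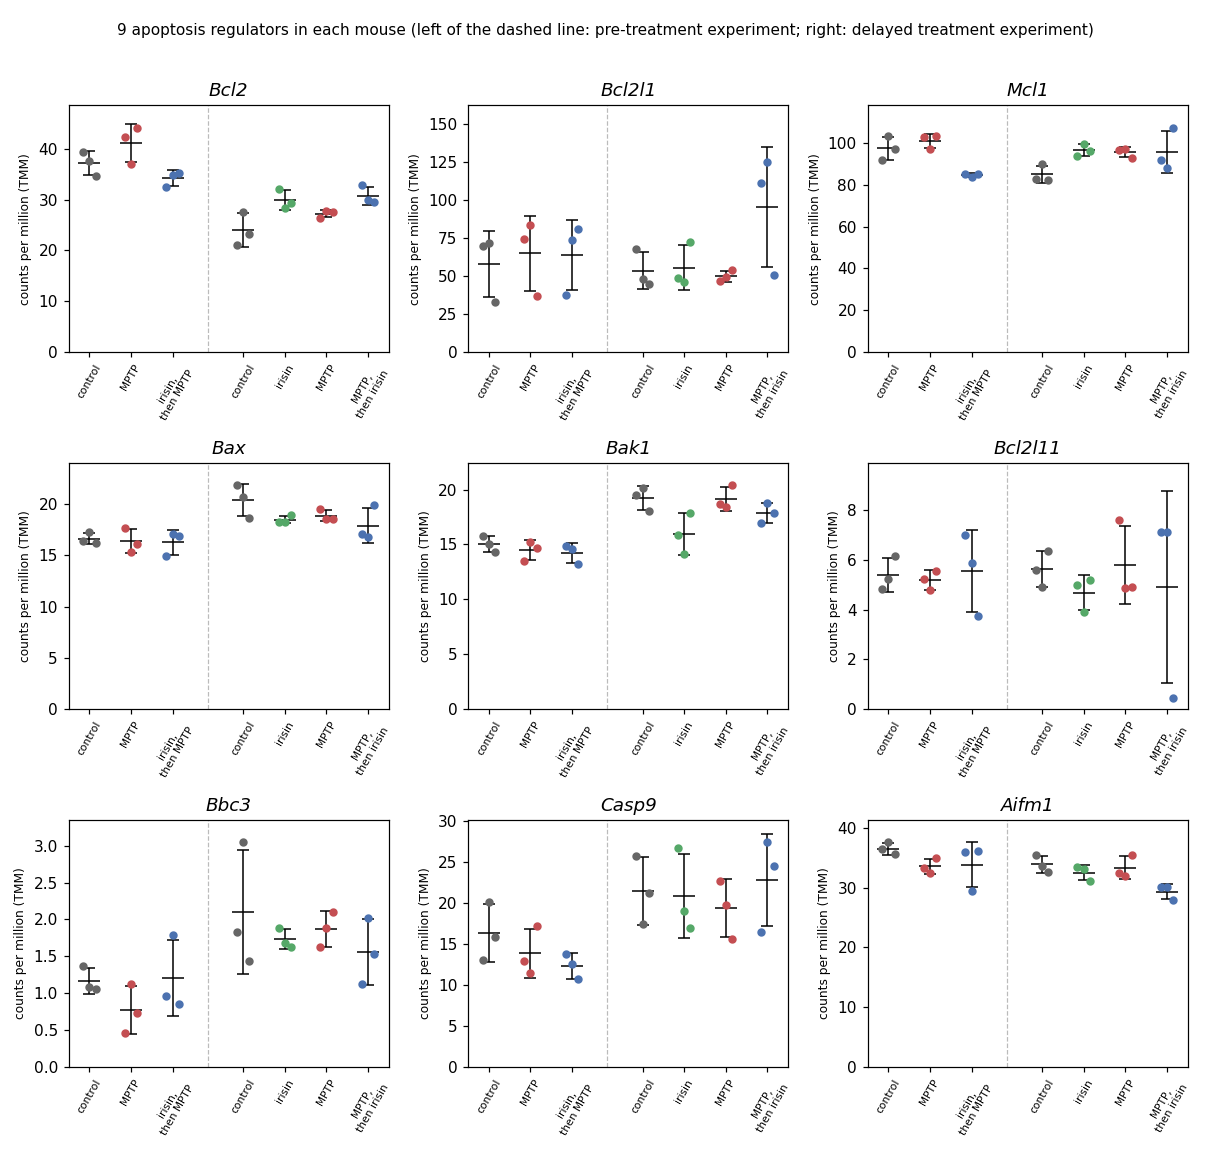
CPM (y axis, TMM scaled) of each of the 9 genes in each of the 21 mice (points), by group (x axis), with the mean and SD of 3 mice as bar and whiskers. Bcl2 and Mcl1 are lowest in irisin pre-treated mice of the first experiment, Bcl2l1 lies on separate levels between mice of a group, and 1 delayed irisin mouse has Bcl2l11 near 0.

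Among the effectors, Bax was one of the steadiest members. It was measured at 16.4, 17.3 and 16.2 CPM in control mice of the pre-treatment experiment, 17.7, 15.4 and 16.1 CPM in MPTP mice and 14.9, 17.1 and 16.9 CPM in irisin pre-treated mice. With delayed treatment the level was 21.9, 20.7 and 18.7 CPM in control mice, 18.3, 18.3 and 18.9 CPM in irisin mice, 19.5, 18.6 and 18.6 CPM in MPTP mice and 17.1, 16.8 and 19.9 CPM in delayed irisin mice. The groups overlapped in every comparison. The log2 fold change of MPTP against control was -0.02 (95% confidence interval -0.23 to 0.19) in the first experiment and -0.11 (-0.31 to 0.09) in the second. Its spread within groups lay at the 13.2th and 12.4th percentiles of genes within 2-fold of its level in the first and the second experiment.

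Bak1, the second effector, was measured at 15.8, 15.02 and 14.3 CPM in control mice, 13.5, 15.2 and 14.7 CPM in MPTP mice and 14.9, 14.6 and 13.2 CPM in irisin pre-treated mice of the pre-treatment experiment, with full overlap. Delayed treatment libraries gave 19.5, 20.2 and 18.0 CPM in control mice, 15.9, 14.1 and 17.9 CPM in irisin mice, 18.7, 18.4 and 20.4 CPM in MPTP mice and 16.9, 18.8 and 17.9 CPM in delayed irisin mice. Irisin mice lay below control mice, the nearest mice being at 17.9 and 18.0 CPM, with a log2 fold change of -0.27 (SE 0.10, adjusted p = 0.514 by edgeR). Bak1 overlaps Ggnbp1 and a further gene model on the opposite strand, whose level was 2.65 to 20.01 CPM over the 21 mice. Whether counting used strand is not given in the sources used here, so reads of these genes could have been shared.

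The BH3-only genes were low and their intervals wide. Bcl2l11 was measured at 4.85 to 6.15 CPM in control mice, 4.80 to 5.57 CPM in MPTP mice and 3.75 to 7.02 CPM in irisin pre-treated mice of the pre-treatment experiment. The second experiment gave 4.92 to 6.37 CPM in control mice, 3.90 to 5.20 CPM in irisin mice and 4.87 to 7.63 CPM in MPTP mice. Delayed irisin mice had 7.15, 7.12 and 0.461 CPM, the last from 25 counts against 233 to 466 in the other 11 mice of that experiment. The log2 fold change of delayed irisin against MPTP was -0.24 (95% confidence interval -1.66 to 1.18).

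Bbc3, a target of p53, was measured at 1.37, 1.08 and 1.05 CPM in control mice, 0.461, 1.12 and 0.733 CPM in MPTP mice and 0.960, 1.79 and 0.852 CPM in irisin pre-treated mice of the pre-treatment experiment, from 32 to 132 counts. Its log2 fold changes were -0.60 for MPTP against control (95% confidence interval -1.50 to 0.30) and 0.64 for irisin pre-treatment against MPTP (-0.26 to 1.54), and both pairs of groups overlapped. With each mouse left out in turn they ranged from -0.96 (without MPTP replicate 2) to -0.34 (without MPTP replicate 1) and from 0.23 (without irisin pre-treatment replicate 2) to 1.002 (without MPTP replicate 2). With delayed treatment it ranged from 1.13 to 3.04 CPM, the highest value being that of 1 control mouse, with log2 fold changes between -0.28 and -0.17 in the 3 comparisons. Changes inside these intervals were not excluded at this depth and spread.

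Downstream of the pore, Casp9, the initiator caspase, was measured at 13.04 to 20.1 CPM in control mice, 11.4 to 17.2 CPM in MPTP mice and 10.6 to 13.8 CPM in irisin pre-treated mice of the pre-treatment experiment. The ranges with delayed treatment were 17.4 to 25.7 CPM in control mice, 16.9 to 26.7 CPM in irisin mice, 15.7 to 22.7 CPM in MPTP mice and 16.5 to 27.4 CPM in delayed irisin mice. These ranges overlapped in every comparison, and the log2 fold changes lay between -0.23 and 0.24 with adjusted p of 0.92 or more by edgeR.

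Aifm1 was measured at 36.5, 37.6 and 35.7 CPM in control mice, 33.3, 32.5 and 34.97 CPM in MPTP mice and 36.0, 29.5 and 36.2 CPM in irisin pre-treated mice of the pre-treatment experiment. MPTP mice lay below control mice without overlap, with a log2 fold change of -0.12 (SE 0.09, adjusted p = 0.900 by edgeR). The levels with delayed treatment were 35.4, 33.7 and 32.7 CPM in control mice, 33.5, 33.1 and 31.1 CPM in irisin mice, 32.5, 32.0 and 35.6 CPM in MPTP mice and 30.1, 30.1 and 27.9 CPM in delayed irisin mice. Delayed irisin mice were the lowest of the 12, with a log2 fold change against MPTP of -0.18 (SE 0.07, adjusted p = 0.9995).

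The irisin effect in mice with and without MPTP was compared within the delayed treatment experiment through the interaction. Its largest estimate was that of Bcl2l1, at 0.88 on the log2 scale (SE 0.42, adjusted p = 0.897 by edgeR), which rests on the same 2 delayed irisin mice. For Bcl2 the estimate was -0.15 (95% confidence interval -0.46 to 0.17) and for Mcl1 -0.19 (-0.42 to 0.04).

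The balance of restraint and effector is often summarised as the ratio of Bcl2 to Bax, which was computed for each mouse from FPKM. The ratio was 0.412, 0.374 and 0.368 in control mice, 0.413, 0.414 and 0.472 in MPTP mice and 0.375, 0.351 and 0.360 in irisin pre-treated mice of the pre-treatment experiment. MPTP mice thus had the highest ratios, although the lowest of them and the highest control mouse, at 0.413 and 0.412, almost touched. The ratio with delayed treatment was 0.166, 0.230 and 0.214 in control mice, 0.303, 0.266 and 0.267 in irisin mice, 0.233, 0.258 and 0.256 in MPTP mice and 0.331, 0.307 and 0.255 in delayed irisin mice. Control mice had the lowest ratios of that experiment. On the log2 scale the difference was 0.17 for MPTP against control and -0.26 for irisin pre-treatment against MPTP in the first experiment, and 0.30 for MPTP against control, 0.46 for irisin alone against control and 0.25 for delayed irisin against MPTP in the second. The groups did not overlap in the first 4 of these, each with p = 0.1 in the exact two-sided permutation test, the smallest p that 3 against 3 mice allow (adjusted over the 5 comparisons, 0.125). The last had p = 0.3 (adjusted p = 0.3 by the same exact test). In each of the 5 comparisons the log2 fold change of Bcl2 was larger in size than that of Bax, and the ratio is no measurement apart from these genes.

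**Figure D3:**
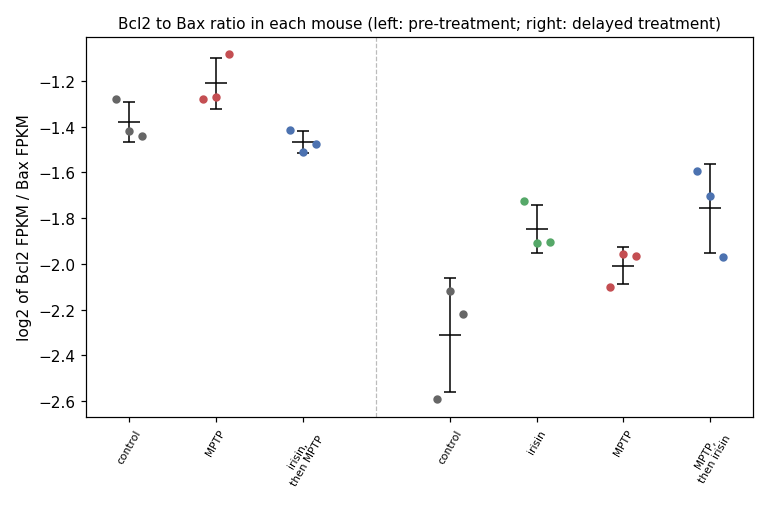
Log2 of the ratio of Bcl2 to Bax in FPKM (y axis) in each of the 21 mice (points) by group (x axis), with the mean and SD of 3 mice. MPTP mice lie above control mice in both experiments, irisin pre-treated mice lie below MPTP mice, and 1 delayed irisin mouse lies within the range of the MPTP mice.

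The genes whose pattern over the 21 mice was closest to that of a member were found from the root mean square difference of log2 CPM, each gene being centred on its mean in each experiment, among 21153 genes. For Bcl2 these included Ppp1r12a and Ccar1 (0.0922 and 0.0957), for Mcl1 they were Tab2, Caskin2 and Zfp35 (0.0763 to 0.0803), and for Bax they were Gsta4, Ndufa5 and Nop10 (0.0651 to 0.0655). The median difference over all genes was 0.301, 0.276 and 0.268 for the 3 members. A gene without any change over the mice would lie at 0.157 from Bcl2, 0.111 from Mcl1 and 0.0911 from Bax. The median over all genes is therefore a loose reference, and a steady gene also lies close to these members. No other member was among these genes.

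The other genes of the pathway were taken as 8 lists of 54 genes, of which 51 were tested in the first experiment and 50 in the second. None had an adjusted p under 0.05 in any of the 5 comparisons or in the interaction (edgeR). At an unadjusted p under 0.05, 4 were higher and 2 lower for MPTP against control (6.03% of all tested genes) and 2 higher and 1 lower for irisin pre-treatment (6.22%) in the first experiment. In the second, 4 were higher and 1 lower for MPTP (8.33%), 5 higher and 2 lower for irisin alone (8.97%), 2 higher and 1 lower for delayed irisin (3.9%), and 3 higher and 3 lower for the interaction (5.57%). Medians over the tested genes of the 8 lists together lay between -0.03 and 0.02 on the log2 scale in the 5 comparisons, close to those of all genes.

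**Figure D4:**
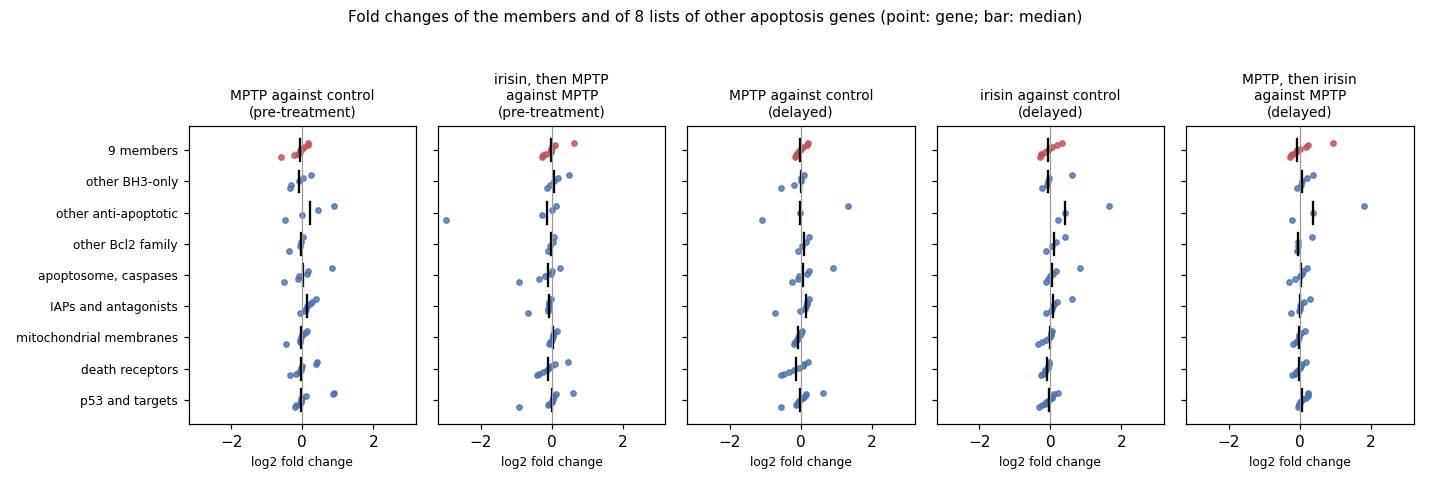
Log2 fold change (x axis) of the 9 genes (red) and of each tested gene of the 8 other lists (blue) in the 5 comparisons (panels), with the median of each list as a bar. The medians of the 9 genes lie between -0.08 and -0.02, and those of the 8 other lists between -0.14 and 0.40, the highest resting on 3 tested genes.

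For MPTP against control in the pre-treatment experiment, the death receptor inhibitor Cflar was at 24.0 ± 2.90 CPM in MPTP mice and 18.6 ± 2.19 CPM in control mice (mean ± SD, n = 3 throughout), the giant inhibitor of apoptosis Birc6 at 161 ± 6.14 and 138 ± 16.8 CPM, the death receptor adaptor Fadd at 3.08 ± 0.341 and 3.94 ± 0.161 CPM, and the p53 target Cdkn1a at 18.7 ± 4.27 and 10.4 ± 4.43 CPM. Their adjusted p was 0.82 by edgeR. With irisin pre-treatment Fadd was at 4.23 ± 0.369 CPM, above the MPTP mice without overlap (log2 fold change 0.46, adjusted p = 0.601). The BH3-only gene Bmf was at 5.87 ± 0.848 CPM with irisin pre-treatment and 4.20 ± 0.557 CPM in MPTP mice, and Eda2r, a receptor induced by p53, at 0.475 ± 0.238 and 0.908 ± 0.106 CPM. Bcl2a1a, a restraining gene with near-identical copies whose reads may be split, was at 0, 0 and 0.110 CPM in irisin pre-treated mice and 0.147 to 0.389 CPM in MPTP mice.

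In the delayed treatment experiment, Bnip3, a mitophagy receptor of the Bcl2 family, was at 114 ± 4.43 CPM in control mice, 126 ± 2.29 CPM in MPTP mice and 128 ± 7.38 CPM in irisin mice. Bcl2a1b, another of the near-identical copies, was at 0.312 ± 0.125, 0.771 ± 0.461 and 0.985 ± 0.0412 CPM in the same groups. Casp2 was at 8.09 ± 2.06 CPM in MPTP mice, 7.70 ± 1.79 CPM in irisin mice and 4.29 ± 0.726 CPM in control mice. Cdkn1a was at 32.9 ± 3.89 CPM in MPTP mice and 48.5 ± 13.8 CPM in control mice (adjusted p = 0.516 by edgeR). Its mean was thus lower in these MPTP mice and higher in those of the first experiment, where the groups overlapped. The difference between the experiments was not tested for Cdkn1a. Trp53, the gene of p53, was at 18.3 ± 1.06 CPM in irisin mice and 23.0 ± 0.896 CPM in control mice (log2 fold change -0.33, adjusted p = 0.373 by edgeR), and the BH3-only gene Pmaip1 at 3.93 ± 0.435 and 2.60 ± 0.5002 CPM. For delayed irisin against MPTP, the apoptosome gene Apaf1 was at 7.77 ± 1.44 and 9.49 ± 0.184 CPM, the channel gene Vdac2 at 193 ± 7.61 and 175 ± 9.61 CPM, the p53 ligase Mdm2 at 44.5 ± 2.74 and 39.7 ± 2.11 CPM and the stress gene Sesn2 at 23.3 ± 0.797 and 19.7 ± 0.389 CPM, each with an adjusted p of 0.9995.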

How the data were processed

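Bulk RNA-seq libraries of 21 mice were sequenced on an Illumina NovaSeq. The authors counted reads per gene with featureCounts and deposited a raw count and an FPKM value for every gene and mouse, in 1 table for each of the 2 experiments. The submitters' processing notes list HISAT, StringTie and edgeR without versions and the build mm9, whereas the positions of the 9 genes are those of GRCm38. Annotation and use of strand are not given in the sources used here. Replicates are separate mice by their labels.

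The main test was edgeR's quasi-likelihood test (edgeR 4.0.16, R 4.3.3, two-sided) after filterByExpr (least count 10, least total 15) and TMM scaling, with all groups of an experiment in 1 model. The Benjamini-Hochberg adjustment ran over every tested gene of an experiment (threshold 0.05). CPM are TMM scaled. The standard error is the fold change divided by the root of the F statistic, and 95% confidence intervals use its t distribution. FPKM served for levels between genes, for the ratio of Bcl2 to Bax (exact permutation test, scipy 1.17.1) and for limma 3.58.1 on log2(FPKM + 1). DESeq2 1.42.0, median ratio scaling, other filters, 2 groups only, a replicate block and leaving out each mouse were alternatives. The steps were tested on simulated counts. The smallest chi-square per gene between mice of a group was 36.9, so no library repeated another of its group. Libraries of different groups were not compared in this way. Precision is limited by 3 mice a group.

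The 9 genes and all lists were chosen with earlier results of these data known. Genes of the lists were named if they passed the threshold in any comparison or had one of the 4 smallest p of a comparison, and the 3 closest genes were named for Bax, Bcl2 and Mcl1. An item that this rule selects is not reported here.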

Additional observations from a re-analysis of the deposited data

Results flagged for a closer look

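The fold change of Bcl2 had opposite signs in the 2 experiments when mice given irisin and MPTP were set against mice given MPTP. With irisin before MPTP the log2 fold change was -0.27 (95% confidence interval -0.47 to -0.06). All 3 irisin mice there lay below all 3 MPTP mice. With irisin after MPTP it was 0.17 (-0.05 to 0.40), and all 3 lay above. The second interval includes 0, so an opposite change is not established. Groups without overlap, in either direction, were found for 14.2% and 10.7% of all tested genes in these comparisons. Bcl2 was flagged because the signs differed, which is no independent test. The difference between the experiments was not tested, since their tables hold other mice, another order of injections and another time after MPTP, which cannot be told apart here. Neither fold change had an adjusted p under 0.05. Bcl2a1a, one of several near-identical copies, also stood lower in all 3 irisin mice with pre-treatment (fitted log2 fold change -2.99) and higher in all 3 with delayed irisin (1.81), at levels of 0 to 0.389 CPM in all 12 of these mice. With libraries at 0 in 2 of these groups, its fitted fold changes depend on the prior count, and the difference was not tested. No formal outlier test was applied to groups of 3 mice.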

How the results depend on the processing

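The 9 genes stayed above an adjusted p of 0.05 under each setting tried (411 values, smallest 0.0900, Mcl1 with irisin pre-treatment by DESeq2) and without any 1 mouse (378 values, smallest 0.281, Bcl2l1 with delayed irisin without the mouse at 50.5 CPM, where its log2 fold change was 1.25). The number of all genes past the threshold depended on the setting. In the order MPTP and irisin pre-treatment of the first experiment, then MPTP, irisin alone, delayed irisin and the interaction of the second, it was 5, 16, 29, 24, 1 and 9, with DESeq2 without a filter 91, 169, 178, 144, 34 and 62, and without 1 mouse in turn 7 to 17, 10 to 26, 16 to 35, 16 to 29, 1 to 7 and 7 to 19. With the 2 compared groups alone it was 10 for MPTP in both experiments, 14 for irisin alone and 9 for delayed irisin. With every gene that had a count it was 2 for delayed irisin, and limma gave 3 for the interaction, or 4 at a mean of at least 1 FPKM. With the replicate number as a block it was 2, 8, 17, 14, 1 and 7, and 0 of 9 members passed. The numbers gave no clear pairing of the mice, although correlations with 3 mice a group cannot exclude it. Same-numbered mice correlated at -0.103 to 0.160 (1 of 9 pairs over 0.1) in the first experiment and -0.0838 to 0.0433 in the second. Mice with other numbers correlated at -0.149 to 0.177 and at -0.0481 to 0.0956. With the block the difference in the log2 ratio of Bcl2 to Bax was the same by construction. The cause of the differences between settings was not tested.

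The sign changed in 17 of the 411 values, for fold changes near 0. These were Bak1 with MPTP (delayed treatment), at 0.00857 with every gene that had a count, 0.0026 by DESeq2, 0.017 by limma on log2(FPKM + 1), also at a mean of at least 1 FPKM, and 0.0191 with a pseudocount of 0.1, and Mcl1 with delayed irisin, at 0.00172 under median ratio scaling and 0.000555 with the 2 groups alone. With the block they were Bcl2l1 with irisin pre-treatment (0.0737), Bcl2l11 with MPTP (delayed treatment, -0.0162), and Bcl2l11 (-0.0895) and Bbc3 (-0.0685) in the interaction. The interaction also changed sign for Bcl2l11 and Bbc3 with every gene that had a count (-0.00355 and -0.00404), by limma on log2(FPKM + 1) (-0.0425 and -0.0175) and with a pseudocount of 0.1 (-0.38 and -0.088). Leaving out 1 mouse turned the sign in 53 of 378 values. For MPTP against control (pre-treatment) the range was -0.13 to 0.43 for Bcl2l1, -0.0839 to 0.0221 for Bax and -0.14 to 0.0438 for Bcl2l11. For irisin pre-treatment the range was -0.30 to 0.25 for Bcl2l1, -0.0541 to 0.056 for Bax, -0.0742 to 0.0217 for Bak1, -0.11 to 0.31 for Bcl2l11, -0.29 to 0.0181 for Casp9 and -0.0393 to 0.10 for Aifm1. For MPTP against control (delayed treatment) the range was -0.21 to 0.10 for Bcl2l1, -0.0556 to 0.0308 for Bak1, -0.20 to 0.16 for Bcl2l11, -0.38 to 0.20 for Bbc3, -0.28 to 0.000382 for Casp9 and -0.0751 to 0.00545 for Aifm1. For irisin alone the range was -0.18 to 0.26 for Bcl2l1, -0.49 to 0.0889 for Bbc3 and -0.25 to 0.11 for Casp9. For delayed irisin the range was -0.0865 to 0.0585 for Mcl1 and -0.62 to 0.30 for Bcl2l11. For the interaction the range was -0.0125 to 0.13 for Bax, -0.35 to 0.56 for Bcl2l11 and -0.35 to 0.23 for Bbc3. The sign of the difference in the ratio of Bcl2 to Bax held with each mouse left out and with CPM in place of FPKM.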
